A study of Mus musculus with 13 samples.

Results

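The peroxisomal lipid oxidation genes described here are 9 genes: Ehhadh, Acaa1a, Acaa1b, Hsd17b4, Scp2, Abcd2, Abcd3, Pex5 and Pex11a. They were grouped by known roles in fatty acid breakdown inside peroxisomes, in transport into them, or in peroxisomal import and division. The choice was made with earlier results of these data known. Rows of the deposited expression table were taken by gene symbol, and 9 of 9 genes were listed among 11761 rows. The RNA came from epididymal white fat of Adipoq-NuTRAP mice on the C57BL/6J background. The tested group was kept for 10 weeks on a high-fat diet (HFD, 3 libraries) and its controls for 10 weeks on chow (3 libraries). Mice of both groups carry the NuTRAP reporter, which tags ribosomes with GFP and nuclei with mCherry in cells where the adiponectin (Adipoq) promoter is active, and RNA bound to the tagged ribosomes was recovered with an antibody against GFP. The labels state neither the sex and age of the mice nor whether replicates were separate animals or pools.

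Peroxisomes shorten fatty acids that mitochondria handle poorly, such as very long, branched and dicarboxylic chains, and pass the shortened products on. Transporters of the ABCD family bring the acyl-CoA in, an acyl-CoA oxidase makes the first double bond and hydrogen peroxide, a multifunctional enzyme hydrates and dehydrogenates the chain, and a thiolase cuts off acetyl-CoA. The enzymes are made in the cytosol and imported by receptors of the peroxin (PEX) family. In rodents many of these genes are targets of the PPAR nuclear receptors, and fat cells hold small peroxisomes that multiply during fat cell differentiation.

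The values are levels in CPM, read counts scaled to a common library size, turned back from the deposited log2 CPM. Effective library sizes read from the steps between low values were 32000000 to 39400000 reads in HFD libraries and 7430000 to 32500000 reads in chow libraries, with chow replicate 3 the shallowest. The 9 genes rested on 376 to 41193 reads a library in HFD and on 155 to 50794 reads a library in chow, with Pex11a the lowest in each library. All 12 adipocyte markers checked were listed, with a summed level of 13292 to 15765 CPM in HFD libraries and 20706 to 32915 CPM in chow libraries. Replicates are treated as separate samples, so the p-values rest on how far these libraries scatter, and that scatter may be technical. In RNA of a whole tissue pulldown, fewer cells of a type and less RNA per cell cannot be told apart.

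The genes did not move as a block. Under HFD the multifunctional enzyme gene Ehhadh, the lipid carrier and thiolase gene Scp2 and the thiolase gene Acaa1a were lower, the second thiolase gene Acaa1b was higher, and Hsd17b4, Abcd2, Abcd3, Pex5 and Pex11a did not pass the test. Fold changes are HFD minus chow on the log2(CPM + 1) scale, tested with limma over 11643 genes, with Benjamini-Hochberg adjustment and a threshold of 0.05. Of the 9 genes 4 were called (44.4%), against 35.1% of all tested genes. The 3 called lower (33.3%) compare with 16.0% of all genes called lower, and the 1 called higher (11.1%) with 19.1% called higher. With 9 genes these shares differ from the background by 1 or 2 genes and are given as a description. The median log2 fold change of the 9 genes was -0.35, against -0.004 for all tested genes.

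**Figure D1:**
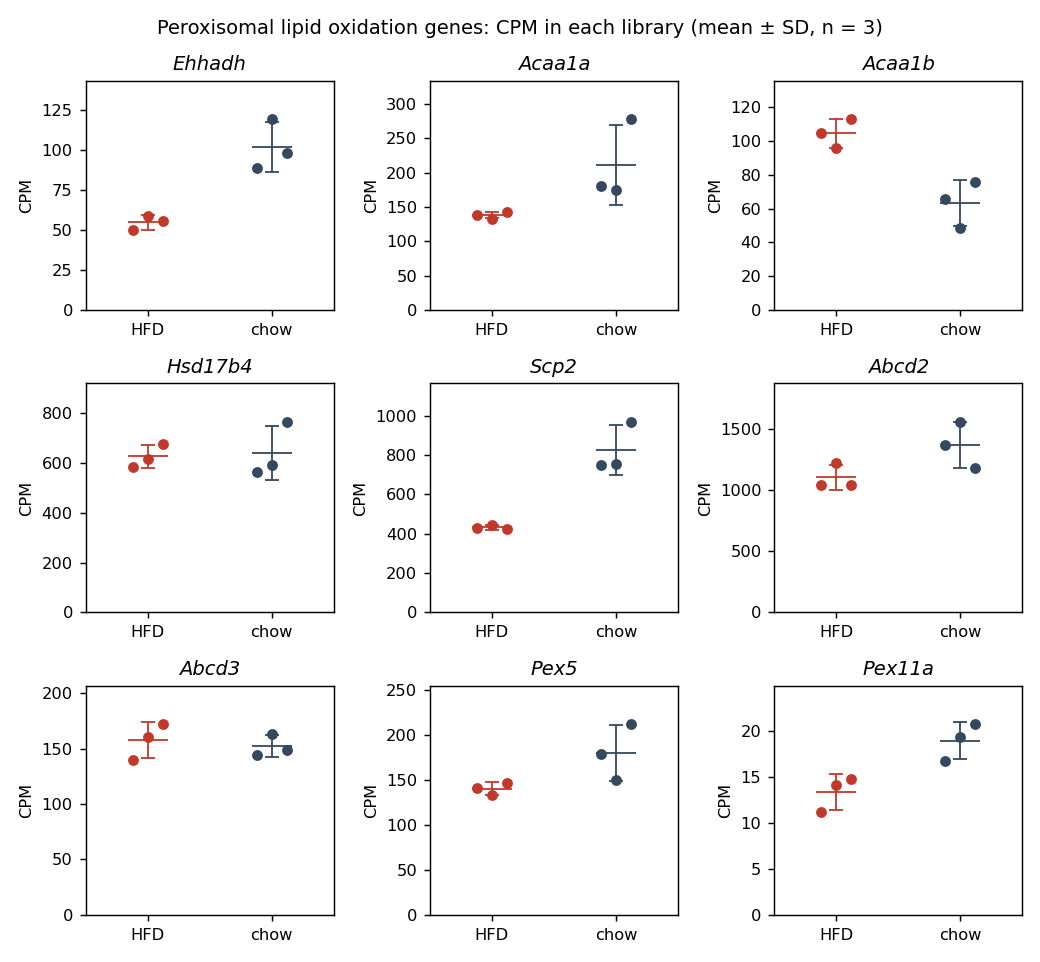
Level in CPM (vertical axis, from 0, on a scale of its own in each panel) of the 9 genes in each of 3 HFD and 3 chow libraries, shown as points with the mean and SD. Ehhadh, Scp2 and Acaa1a are lower in every HFD library than in any chow library, and Acaa1b is higher in every HFD library than in any chow library.

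Ehhadh encodes the L-bifunctional enzyme, which carries out the middle steps of the spiral and in mice is best known for dicarboxylic acids. Its level was 49.9, 58.9 and 55.3 CPM in HFD libraries 1, 2 and 3, against 88.6, 119 and 97.7 CPM in chow libraries 1, 2 and 3. All HFD libraries lay below all chow libraries. The mean was 54.7 ± 4.55 CPM in HFD and 102 ± 15.4 CPM in chow (SD, n = 3 each), a level 46.2% lower in HFD. The log2 fold change was -0.87 (SE 0.144, 95% interval -1.197 to -0.552, limma adjusted p 0.00165). The gene (row uc007yrm.2) lies on chromosome 16 at 21761285 to 21787834 of GRCm38.p6 (mm10).

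Hsd17b4 encodes the D-bifunctional enzyme, which catalyses the same middle steps with the opposite stereochemistry and serves most very long and branched chains. Its level was 584, 617 and 676 CPM in HFD libraries, against 564, 592 and 765 CPM in chow libraries. The diets overlapped, and the log2 fold change was -0.02 (SE 0.151, 95% interval -0.36 to 0.32, limma adjusted p 0.92). Changes inside that interval are not excluded by these libraries. The gene (row uc008eww.2) lies on chromosome 18.

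Scp2 carries 2 products, the sterol carrier protein SCP2, which binds lipids, and the longer SCPx, whose extra part is a thiolase for branched chains. The table holds a single row for the gene, so the products are not told apart. Its level was 428, 446 and 422 CPM in HFD libraries, against 750, 755 and 969 CPM in chow libraries. The HFD libraries lay close together and far below all chow libraries, with a mean of 432 ± 12.5 CPM in HFD and 824 ± 125 CPM in chow (SD, n = 3 each). Scp2 fell by 0.92 on the log2 scale (SE 0.141, 95% interval -1.24 to -0.61, limma adjusted p 0.00112), the largest change among the 9 genes. The gene (row uc008uas.2) lies on chromosome 4 at 108043830 to 108144971, and processed copies of it elsewhere in the genome, Scp2-ps1 and Scp2-ps2, could share reads with it.

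Acaa1a and Acaa1b are paralogs that both encode a peroxisomal 3-ketoacyl-CoA thiolase, the last enzyme of the spiral for straight chains. They moved in opposite directions. Acaa1a had 139, 133 and 143 CPM in HFD libraries, against 180, 175 and 278 CPM in chow libraries. All HFD libraries were below all chow libraries, and chow library 3 stood above the other 2. Its mean was 138 ± 5.31 CPM in HFD and 211 ± 58.3 CPM in chow (SD, n = 3 each), with a log2 fold change of -0.57 (SE 0.178, limma adjusted p 0.0327).

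Acaa1b had 105, 95.7 and 113 CPM in HFD libraries, against 65.8, 48.5 and 75.6 CPM in chow libraries. All HFD libraries were above all chow libraries, with a mean of 104 ± 8.66 CPM in HFD and 63.3 ± 13.7 CPM in chow (SD, n = 3 each), a 1.65-fold level in HFD. Its log2 fold change was 0.73 (SE 0.170, 95% interval 0.35 to 1.11, limma adjusted p 0.00921). The call of Acaa1b held under all 20 alternative settings. That of Acaa1a was lost without HFD replicate 1, 2 or 3 (limma adjusted p 0.0788, 0.0955 and 0.0746) and without a mean-variance trend (0.0577). Without chow replicate 3 the log2 fold change of Acaa1a was -0.36 (limma adjusted p 0.0288).

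The summed level of both thiolase genes was 244, 228 and 256 CPM in HFD libraries, against 246, 223 and 354 CPM in chow libraries. The sums overlapped between the diets, and tested as a single row they differed by -0.15 on the log2 scale (SE 0.173, 95% interval -0.54 to 0.24, limma adjusted p 0.536). Acaa1b made up 42.9%, 41.9% and 44.1% of the summed CPM in HFD libraries, against 26.8%, 21.7% and 21.4% in chow libraries. These are shares of reads, not corrected for transcript length, and they did not overlap. The log2 ratio of Acaa1b to Acaa1a was -0.40 ± 0.06 in HFD and -1.71 ± 0.24 in chow (SD, n = 3 each), so the ratio was 2.47-fold higher in HFD (exact two-sided permutation p 0.1, the smallest that 3 against 3 allows; 0.133 adjusted over 8 ratios). A ratio within a library hardly depends on how libraries are scaled. Its difference between diets follows from the fold changes of both genes and is not separate support. The genes lie on chromosome 9, Acaa1b (row uc009saj.1) at 119148043 to 119157093 and Acaa1a (row uc009sas.1) at 119341028 to 119350296. Their coding sequences are close enough that reads may be shared, and the labels do not state how shared reads were counted, so the level of each gene alone is uncertain.

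**Figure D2:**
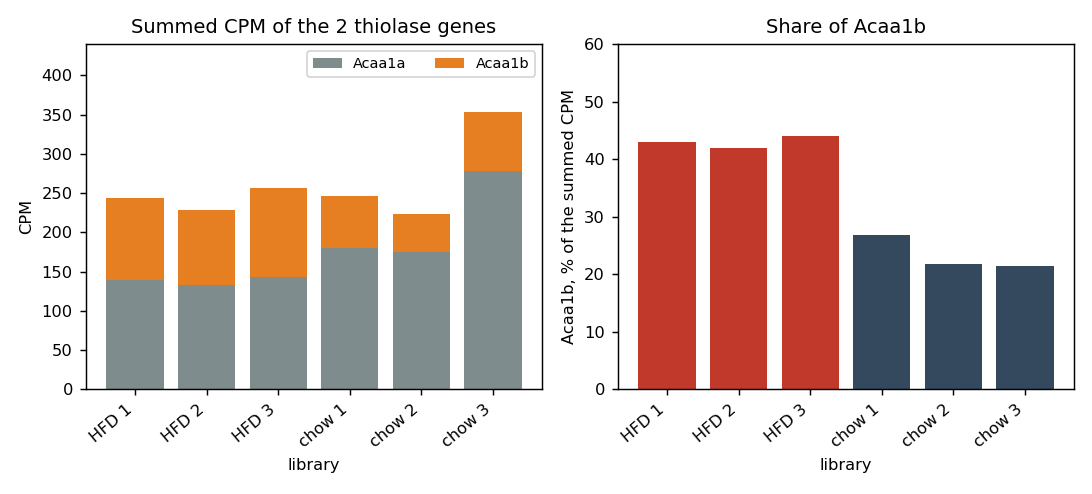
Left, CPM of Acaa1a and Acaa1b stacked for each of 3 HFD and 3 chow libraries. Right, Acaa1b as a percentage of the summed CPM of the pair, which is 41.9% to 44.1% in HFD libraries and 21.4% to 26.8% in chow libraries, while the sums overlap.

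Because 3 enzyme or carrier genes fell and a paralog of 1 of them rose, the 250 bases upstream of 1 annotated transcript start of each are shown, 5′ to 3′ on the gene's strand, from RefSeq sequences of GRCm38.p6. Capitals mark, on either strand, CCAAT (bound by NF-Y), GGGCGG (the GC box, bound by Sp factors) and AGGTCA (the half-site of nuclear receptors). The windows are chr16:21787835-21788084 (minus strand) for Ehhadh, chr4:108118548-108118797 (minus strand, inside the annotated gene span) for Scp2, chr9:119341044-119341293 (plus strand, likewise inside the annotated gene span) for Acaa1a and chr9:119157094-119157343 (minus strand) for Acaa1b.
Ehhadh: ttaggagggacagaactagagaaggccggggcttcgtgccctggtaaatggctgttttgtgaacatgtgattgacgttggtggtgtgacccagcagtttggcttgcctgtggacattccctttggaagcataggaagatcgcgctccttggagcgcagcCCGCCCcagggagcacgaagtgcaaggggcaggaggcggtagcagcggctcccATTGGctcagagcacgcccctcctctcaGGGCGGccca
Scp2: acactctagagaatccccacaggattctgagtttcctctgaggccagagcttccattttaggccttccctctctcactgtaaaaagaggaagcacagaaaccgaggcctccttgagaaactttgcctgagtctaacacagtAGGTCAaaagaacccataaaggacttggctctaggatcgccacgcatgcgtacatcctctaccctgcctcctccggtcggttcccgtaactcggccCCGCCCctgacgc
Acaa1a: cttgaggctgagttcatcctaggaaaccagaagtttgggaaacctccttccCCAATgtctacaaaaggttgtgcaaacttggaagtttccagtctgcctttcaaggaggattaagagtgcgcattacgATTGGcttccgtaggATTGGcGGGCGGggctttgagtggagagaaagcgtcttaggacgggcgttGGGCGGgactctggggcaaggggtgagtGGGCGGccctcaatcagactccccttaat
Acaa1b: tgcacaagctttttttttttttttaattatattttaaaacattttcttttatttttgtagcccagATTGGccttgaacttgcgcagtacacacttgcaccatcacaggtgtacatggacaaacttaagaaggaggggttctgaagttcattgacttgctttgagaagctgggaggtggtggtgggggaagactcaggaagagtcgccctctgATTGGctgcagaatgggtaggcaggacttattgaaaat

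The windows of the 2 thiolase genes looked unlike each other. That of Acaa1a held 3 CCAAT and 3 GGGCGG matches at 53.6% GC, and that of Acaa1b held 2 CCAAT and 0 GGGCGG matches at 41.6% GC. A global alignment gave 48.2% identical columns between them, against 47.7% between Acaa1a and Ehhadh and 43.9% between Acaa1b and Ehhadh. Ehhadh had 1 CCAAT and 2 GGGCGG matches, and Scp2 had 1 GGGCGG and 1 AGGTCA match. Over the 32851 RefSeq windows of the same length, 33.8% held CCAAT, 32.7% held GGGCGG and 14.0% held AGGTCA. No matches of different motifs overlapped in the 4 windows. A match is a description of letters, and a window without one says nothing of the factor.

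The transporters showed smaller differences, none of which passed. Abcd2 encodes the peroxisomal transporter of very long and polyunsaturated acyl-CoA that is known for high expression in fat. Its level was 1046, 1226 and 1046 CPM in HFD libraries, against 1370, 1563 and 1184 CPM in chow libraries. HFD library 2 lay above the lowest chow library, and the log2 fold change was -0.31 (SE 0.156, 95% interval -0.66 to 0.04, limma adjusted p 0.156). Without chow replicate 3 it was -0.41 and passed (limma adjusted p 0.0478). It was -0.21 without chow replicate 2 (adjusted p 0.39), -0.20 with equal totals (0.416) and -0.16 with quantile normalization (0.527). The gene (row uc007xhx.1) lies on chromosome 15 at 91145871 to 91192007.

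Abcd3 encodes PMP70, an abundant protein of the peroxisomal membrane that carries branched and dicarboxylic acyl-CoA. It had 140, 160 and 172 CPM in HFD libraries, against 144, 163 and 149 CPM in chow libraries, with full overlap. The log2 fold change was 0.05 (SE 0.126, 95% interval -0.24 to 0.33, limma adjusted p 0.802). The gene (row uc008reg.1) lies on chromosome 3 at 121758904 to 121815302.

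The peroxins were lower in every HFD library than in any chow library without passing the test over all genes. With a replicate block, both were called (limma adjusted p 0.0454 for Pex5 and 0.0313 for Pex11a). That fit takes equal replicate numbers as pairs, which the labels do not state. Pex5, the import receptor for enzymes with the C-terminal targeting signal, had 141, 133 and 147 CPM in HFD libraries, against 179, 150 and 212 CPM in chow libraries. Chow library 2 lay close to the HFD libraries. The log2 fold change was -0.35 (SE 0.145, 95% interval -0.67 to -0.02, limma adjusted p 0.0907), and it passed without chow replicate 2 (-0.47, adjusted p 0.0397), while it was -0.22 without chow replicate 3 (adjusted p 0.182). The gene (row uc009dqs.1) lies on chromosome 6 at 124396816 to 124415944.

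Pex11a, which shapes the membrane when peroxisomes elongate and divide and is the inducible member of its family in rodents, had 11.2, 14.2 and 14.8 CPM in HFD libraries, against 16.8, 19.4 and 20.8 CPM in chow libraries. The log2 fold change was -0.48 (SE 0.172, 95% interval -0.87 to -0.09, limma adjusted p 0.0563). Quantile normalization gave -0.61 and an adjusted p of 0.0316. It was the thinnest of the 9 genes, with 155 reads in chow library 3. The gene (row uc009hyy.1) lies on chromosome 7 at 79735957 to 79743131 and overlaps the listed gene Wdr93, which averaged 19.0 ± 3.85 CPM in HFD and 16.3 ± 0.406 CPM in chow (SD, n = 3 each). The library kit does not mark strand, so reads of Pex11a and Wdr93 in shared exons cannot be told apart. Of the other 8 genes, none overlapped a listed gene. HFD and chow libraries were fully separated for 6 of the 9 genes (66.7%), against 50.2% of all tested genes.

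Ratios between genes within a library hardly depend on scaling, apart from the CPM of 1 added to each level. Their differences between diets follow from the fold changes given above and are not separate support. The log2 ratio of Ehhadh to Hsd17b4 was -3.49 ± 0.11 in HFD and -2.64 ± 0.32 in chow (SD, n = 3 each), a difference of -0.85. That of Scp2 to Hsd17b4 was -0.45, -0.47 and -0.68 in HFD libraries, against 0.41, 0.35 and 0.34 in chow libraries, a difference of -0.90. That of Abcd2 to Abcd3 was 2.81 ± 0.19 in HFD and 3.16 ± 0.15 in chow (SD, n = 3 each), a difference of -0.35. None of these 3 ratios overlapped between the diets, and each had the smallest possible exact permutation p of 0.1 (0.133 adjusted over 8 ratios). The ratio of Pex11a to Pex5 overlapped between the diets (difference -0.13, exact permutation p 0.6). The absolute size of a log2 ratio also depends on transcript length, and only its difference between diets is compared.

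**Figure D3:**
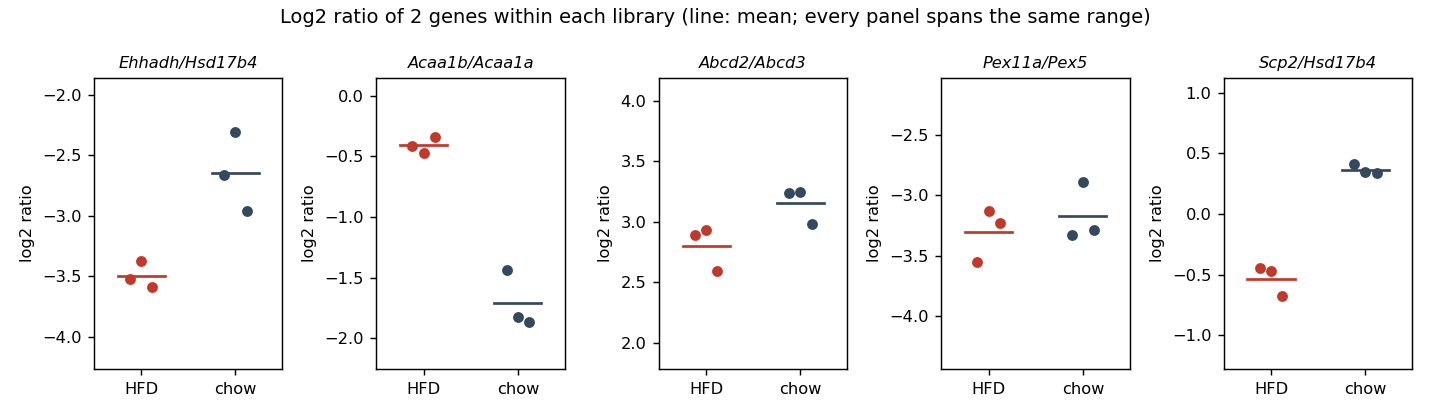
Log2 ratio of the CPM + 1 of 2 genes within each library (vertical axis) for 5 pairs, with 3 HFD libraries left of 3 chow libraries and a line at each mean; every panel spans the same range. The ratio of Acaa1b to Acaa1a is higher in HFD libraries by 1.31, and those of Ehhadh and Scp2 to Hsd17b4 are lower by 0.85 and 0.90.

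The change of each gene depends on what the libraries are scaled to. The adipocyte markers were themselves lower in HFD, with 8 of 12 called lower and 0 called higher and a median log2 fold change of -0.65. Without HFD replicate 2 or without HFD replicate 3, 5 of the 12 were called lower. Setting the median of these 12 markers equal between libraries raised the median of all tested genes by 0.65. Under that scaling 0 of the 9 genes were called lower and 3 were called higher, namely Acaa1b (1.42), Abcd3 (0.73) and Hsd17b4 (0.67). Over all 11643 tested genes it gave 272 lower and 6739 higher. Scp2 (-0.23, limma adjusted p 0.166) and Ehhadh (-0.19, adjusted p 0.434) stayed below 0 without passing, and Acaa1a stood at 0.11 (adjusted p 0.541), on the other side of 0. Relative to the median of all genes under the same scaling, Scp2 lay at -0.88, Ehhadh at -0.84, Acaa1a at -0.53 and Acaa1b at 0.77, close to the values under the deposited scaling. Setting the markers equal divides each library by a single factor, so this closeness follows by construction and is not a separate result. Scp2, Ehhadh and Acaa1a were called lower under the deposited scaling and not relative to the median adipocyte marker. Scaling to equal totals raised the median of all genes by 0.10 and kept the 3 lower calls and the 1 higher call.

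**Figure D4:**
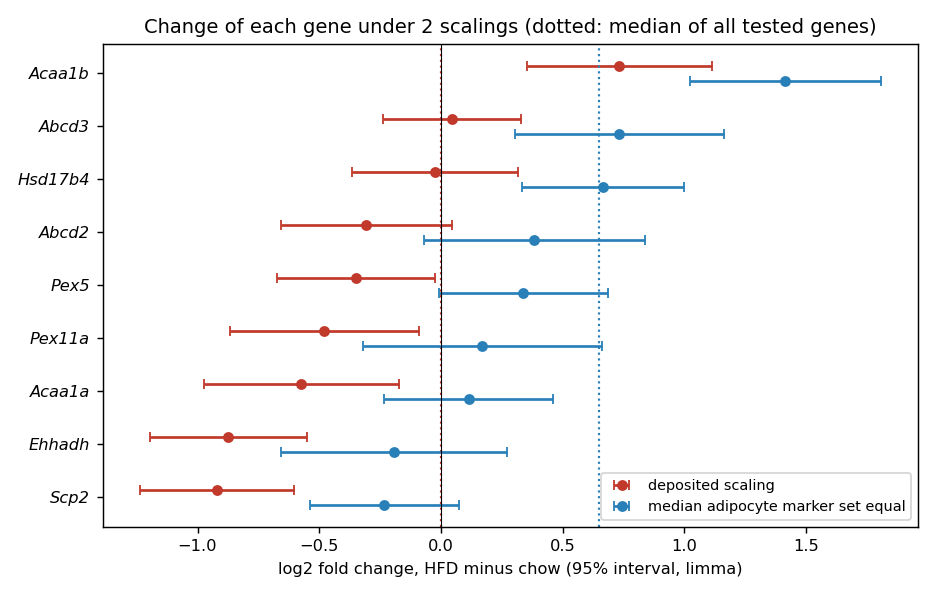
Log2 fold change, HFD minus chow, with its 95% interval (horizontal axis) for the 9 genes under the deposited scaling (red) and with the median adipocyte marker set equal between libraries (blue); dotted lines mark the median of all tested genes under each. Scp2 and Ehhadh are below 0 under both scalings, Acaa1a changes side (-0.57 and 0.11) and Acaa1b is above 0 under both (0.73 and 1.42).

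Markers of other cell types moved with the diet beside these genes. Of 16 macrophage markers 15 were called higher and 1 lower, with a summed level of 423 to 672 CPM in HFD libraries and 85.5 to 113 CPM in chow libraries. Mmp12, a macrophage elastase, was at the lowest value of the table in a chow library. Of 11 endothelial markers 10 were called higher and 0 lower, with a summed level of 165 to 321 CPM in HFD and 34.2 to 89.1 CPM in chow. Of 8 smooth muscle markers 7 were called higher, and of 11 fibroblast markers 4 higher and 1 lower. The part of these cells, and of the lower adipocyte markers, in the levels of the 9 genes was not tested. Chow replicate 3 gave the highest level for 5 of the 9 genes, and the coefficient of variation was larger in chow than in HFD for 7 of the 9. The same counts over all tested genes were not made, so they are not read as traits of these genes. The CPM of chow replicate 3 summed to 1182123, against 984422 to 1030469 in the other libraries.

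Other genes linked to peroxisomes were described by 4 lists. Of 25 tested genes of peroxisomal fatty acid oxidation and acyl-CoA handling other than the 9, 9 were called lower (36.0%) and 2 higher (8.0%), with a median log2 fold change of -0.12. That median was -0.01 with equal totals, -0.04 with quantile normalization and 0.57 with the median adipocyte marker set equal. Ephx2, the soluble epoxide hydrolase, had 152, 147 and 175 CPM in HFD libraries, against 461, 355 and 491 CPM in chow libraries (-1.45, SE 0.151, limma adjusted p 0.000138). Phyh, which starts the alpha-oxidation of phytanic acid, averaged 150 ± 12.5 CPM in HFD and 333 ± 62.4 CPM in chow (SD, n = 3 each; -1.13, limma adjusted p 0.000545). The enoyl-CoA isomerase gene Eci3 fell by 0.81. The other 6 that fell, Amacr, Ech1, Crat, Nudt19, Mlycd and Acbd5, had log2 fold changes between -0.69 (Crat) and -0.49 (Nudt19) and are named after their values were seen. Acox3, an oxidase of branched chains (0.54), and Hsdl2, a dehydrogenase-like protein gene (0.53), rose, and lost their calls without HFD replicate 3 (limma adjusted p 0.0578 and 0.0747), as Hsdl2 did without HFD replicate 2 (0.0622). Crot, which prepares shortened chains for export, averaged 93.7 ± 8.24 CPM in HFD and 102 ± 14.0 CPM in chow (SD, n = 3 each) and was not called (limma adjusted p 0.559).

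Of 19 tested peroxins and membrane or division genes other than Pex5 and Pex11a, 5 were called lower (26.3%) and 0 higher, with a median of -0.22. The lower calls numbered 3 without HFD replicate 1, 2 or 3, without chow replicate 2 and with equal totals. The median was -0.14 without HFD replicate 1, -0.11 with equal totals, -0.13 with quantile normalization and 0.47 with the median adipocyte marker set equal. The ATPase gene Pex6, whose product helps to pull used Pex5 back out of the membrane, had 76.6, 49.2 and 58.9 CPM in HFD libraries, against 125, 127 and 179 CPM in chow libraries (-1.21, SE 0.194, limma adjusted p 0.00145). Pex11g (-0.96), the third gene of the PEX11 family, and Pxmp2 (-0.92), a channel of the peroxisomal membrane, fell too. Pex14, the docking protein for Pex5, averaged 58.6 ± 3.48 CPM in HFD and 53.9 ± 3.63 CPM in chow (SD, n = 3 each) and was not called (0.12, limma adjusted p 0.489).

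Of 11 tested genes that make or remove peroxide or supply reducing power, 4 were called lower (36.4%) and 0 higher, with a median of -0.37 that was -0.22 without chow replicate 3 and 0.32 with the median adipocyte marker set equal. They were Paox, the polyamine oxidase (-0.93), Sod1, a largely cytosolic superoxide dismutase (-0.82), Xdh, the xanthine dehydrogenase of purine breakdown (-0.64), and Idh2, a mitochondrial isocitrate dehydrogenase (-0.53). Xdh lost its call under 8 of the other settings besides that scaling. Catalase (Cat), the peroxisomal enzyme that destroys hydrogen peroxide, had 771, 776 and 765 CPM in HFD libraries, against 910, 955 and 1128 CPM in chow libraries. All HFD libraries lay below all chow libraries, and the log2 fold change of -0.37 (SE 0.136) did not pass (limma adjusted p 0.0624).

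In the short list of ether lipid genes and desaturases, 3 of 5 tested genes were called higher and 0 lower, with a median of 0.52. Without HFD replicate 2 or without HFD replicate 3 only Fads3, which is not an ether lipid gene, kept its call. Agps, the peroxisomal enzyme that forms the ether bond, had 115, 150 and 128 CPM in HFD libraries, against 88.0, 102 and 83.3 CPM in chow libraries (0.52, SE 0.142, limma adjusted p 0.0198), and lost its call without HFD replicate 2 or 3 (adjusted p 0.0788 and 0.0605). The other 2 encode desaturases outside peroxisomes: Fads3, a desaturase of sphingoid bases, averaged 1139 ± 19.9 CPM in HFD and 463 ± 51.3 CPM in chow (SD, n = 3 each; 1.30, limma adjusted p 0.000126), and Tmem189, which makes the vinyl ether of plasmalogens, rose by 0.55 and lost its call without each HFD replicate and without chow replicate 1 (adjusted p 0.057 to 0.11).

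**Figure D5:**
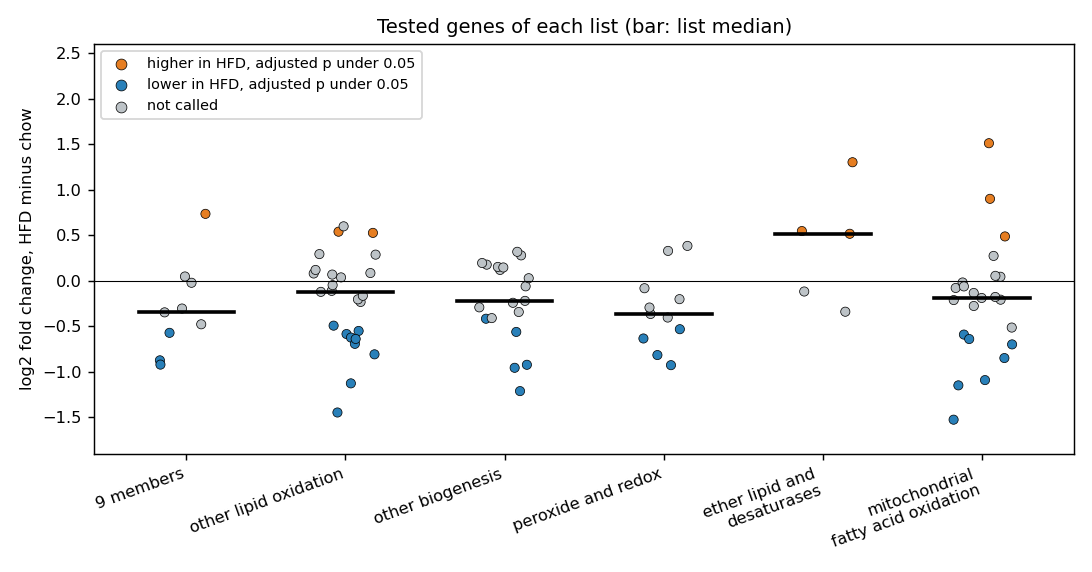
Log2 fold change, HFD minus chow, of each tested gene (points) in the 9 genes, in 4 lists of genes linked to peroxisomes and in mitochondrial fatty acid oxidation, with a bar at the list median and colours for the limma call. The medians lie at -0.35, -0.12, -0.22, -0.37, 0.52 and -0.19 under the deposited scaling; with the median adipocyte marker set equal, those below 0 lie above 0.

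Over these 4 lists together, 18 of 60 tested genes were called lower (30.0%) and 5 higher (8.33%). These counts include genes whose products act largely or wholly outside peroxisomes, such as Sod1, Idh2, Fads3 and Tmem189. With the median adipocyte marker set equal, 3 were called lower and 31 higher, beside 272 lower and 6739 higher among all 11643 tested genes. Ephx2, Phyh and Pex6 kept their lower calls. In mitochondrial fatty acid oxidation 7 of 23 tested genes were called lower (30.4%) and 3 higher (13.0%), with a median of -0.19. Without chow replicate 3 the median was -0.08 and 1 gene was called higher. The median was -0.08 with equal totals, -0.11 with quantile normalization and 0.50 with the median adipocyte marker set equal. Its thiolase gene Acaa2, the counterpart of the Acaa1 genes in mitochondria, averaged 143 ± 17.2 CPM in HFD and 102 ± 13.7 CPM in chow (SD, n = 3 each; 0.49, limma adjusted p 0.029), and lost its call in 5 of 20 alternative settings. Whether these lists differ from the 9 genes or from each other was not tested.

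Among nuclear receptors and cofactors that act on peroxisomal genes, 5 of 15 were called lower (33.3%) and 1 higher (6.67%). Over all tested genes, 16.0% were called lower and 19.1% higher. The lower calls of this list numbered 3 with equal totals. With the median adipocyte marker set equal, 0 were called lower and 6 higher. Ppara, the receptor that drives peroxisomal genes in rodent liver, averaged 18.9 ± 3.11 CPM in HFD and 25.9 ± 5.12 CPM in chow (SD, n = 3 each) and was not called (-0.43, SE 0.188, limma adjusted p 0.107). Pparg, the receptor of fat cells, averaged 231 ± 33.0 CPM in HFD and 232 ± 74.5 CPM in chow (SD, n = 3 each). The partner receptor gene Rxra had 315, 280 and 292 CPM in HFD libraries, against 407, 501 and 478 CPM in chow libraries (-0.64, limma adjusted p 0.00489; 0.05 with the median adipocyte marker set equal). The coactivator genes Ppargc1a (-0.996) and Ppargc1b (-0.879) fell, without passing when the median adipocyte marker was set equal. Of 15 other lipid genes widely used as PPAR targets 4 were called higher and 3 lower. The lipid droplet gene Plin2 averaged 452 ± 31.4 CPM in HFD and 142 ± 20.5 CPM in chow (SD, n = 3 each) and rose by 1.67 on the log2 scale (limma adjusted p 4.71e-05).

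The genes whose pattern over the 6 libraries was most like that of a member were found by the mean absolute difference between centred log2(CPM + 1) values, among 8948 other genes averaging 10 CPM or more. For Scp2, the member with the largest change, they included Ngrn (0.038), Pddc1 (0.039), Aldh5a1 (0.040) and Sdha (0.045). Sdha encodes a subunit of a respiratory complex and Aldh5a1 an enzyme of mitochondria, and all 4 were called lower in HFD, with log2 fold changes of -0.90 (Ngrn), -0.92 (Pddc1), -0.93 (Aldh5a1) and -0.999 (Sdha). For Abcd2, the member with the highest level in CPM, they were Wdr92 (0.032), Cep57 (0.035), Ndufa10 (0.039), Bcl2 (0.039) and Rps6ka3 (0.040). The 6 libraries fall into 2 diets, so genes with a like difference between diets score as alike.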

How the data were processed

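Per the labels' protocols, RNA from GFP-tagged ribosomes was cleared of ribosomal RNA and made into libraries by tagmentation, which keeps no strand. Tools in the submitters' processing notes include featureCounts, HISAT2, edgeR and Picard, with the build mm10. The sources do not give their roles and versions, the filter on low genes or the prior count. The authors deposited log2 CPM per gene, rounded to 2 decimals; the base of the logarithm was inferred from whole-read steps among low values. Each library column was matched to its sample by diet and replicate number.

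Values were turned back into CPM as powers of 2 and tested as log2(CPM + 1) with limma 3.58.1 (R 4.3.3; two-sided, eBayes with trend) over the 11643 genes averaging 1 CPM or more, adjusted by Benjamini-Hochberg over all of them at 0.05. This scale understates the change of low genes. Library sizes came from the steps between low values, of which 100.0% under 20 reads were whole within 0.1 of a read in every library. Because the unit is a log value, no count test was run; voom weights on recovered reads were an alternative. Other alternatives were pseudocounts, filters, scalings, eBayes settings, a replicate block and leaving out each library. Where a symbol had several rows (Pex3 in the lists), the row with the highest mean was used. Ratios of 8 gene pairs were tested by exact permutation, and 5 are reported.

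The 9 genes and the gene lists were chosen with earlier results of these data known. Named were all members, 10 fixed genes, up to 3 risen and 3 fallen called genes of each list, up to 2 called markers of each cell type and the 5 most alike genes of 2 members; a selection of these is printed, and some are not reported here. Upstream sequences came from RefSeq (GRCm38.p6), where 7 of 9 members had a window. Transcript lengths were not used, so levels of different genes are not compared. Chromatin samples were not analysed here.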

Additional observations from a re-analysis of the deposited data

How the results depend on the processing

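The calls of Scp2 and Ehhadh held under 19 of 20 alternatives, with log2 fold changes of -0.99 to -0.80 and -0.97 to -0.76, and were lost with the median adipocyte marker set equal between libraries; Acaa1b held under 20 of 20. That scaling gave 6739 higher and 272 lower genes in all, 3 higher and 0 lower among the 9 genes and 31 higher and 3 lower in the 4 lists linked to peroxisomes together. It put on the other side of 0 the medians of the 9 genes (0.34), the 4 lists together (0.50), their oxidation (0.57), biogenesis (0.47) and redox (0.32) lists, mitochondrial oxidation (0.50), PPAR regulators (0.33), PPAR targets (0.47) and adipocyte markers (0.04), and Acaa1a (0.11), Hsd17b4 (0.67), Abcd2 (0.38), Pex5 (0.34), Pex11a (0.17), Cat (0.32), Crot (0.57), Ppara (0.23), Xdh (0.05), Rxra (0.05) and Plin1 (0.13); by construction it removes the fall of the markers. Equal totals gave 8 higher genes in the 4 lists and Hsd17b4 0.09, and quantile normalization gave Hsd17b4 0.09. Leaving out each library in turn gave 1162 to 1740 lower genes (1162 without HFD replicate 3), 1 to 8 higher genes in the 4 lists (1 without HFD replicate 3, 2 without HFD replicate 2, 8 without chow replicate 3), and uncalled values on either side of 0 for Hsd17b4 (-0.11 to 0.11), Abcd3 (-0.02 to 0.13), Pparg (-0.21 to 0.26) and the log2 ratio of Pex11a to Pex5 (-0.22 to 0.01). The cause of these shifts was not tested.

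Same-numbered HFD and chow libraries deviated together with correlations across genes of 0.433, 0.232 and 0.086. Each HFD library correlated best with the chow library of its own number. Chow replicate 3, in turn, correlated better with HFD replicate 2 (0.15). The labels give only numbers, so whether these pair the samples is not settled. With a replicate block, 2594 genes were called higher and 2245 lower, and 5 of the 9 genes were called lower, Pex5 (limma adjusted p 0.0454) and Pex11a (0.0313) besides the 3 above. The depth of chow replicate 3 limits the thinnest genes, and library sizes cover counting error only.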
